A study of Mus musculus with 24 samples.

Results

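A group of 10 genes known as markers of the resident, quiescent fibroblasts of the heart was followed across 24 mouse heart libraries: Tcf21, Pdgfra, Pi16, Scara5, Gsn, Dpep1, Cd248, Cygb, Pcsk6 and Entpd2. They were named by symbol, and each symbol matched 1 of the 43432 gene identifiers in the deposited count table, so that 10 of 10 were measured. All 10 passed the filter on low counts in every comparison. Total RNA depleted of ribosomal RNA was sequenced from hearts of C57BL/6 mice, with 4 libraries in each of 6 groups. Sedentary mice were the controls of the Running group, which exercised for 8 weeks. TAC-LVH hearts came from mice with 2 weeks of transverse aortic constriction (TAC), an operation that narrows the aorta and so raises pressure in the left ventricle, and Sham-LVH hearts were their sham-operated controls. TAC-HF hearts were taken 8 weeks after TAC, with Sham-HF hearts as controls. The labels give no allele, drug, sex or age for any group, and no time after surgery for the sham groups. They number the 4 heart samples of a group without saying that each is a separate animal, so that p-values measure only the spread between these libraries, which may in part be technical.

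Cardiac fibroblasts build and maintain the collagen matrix between the muscle cells. In the unloaded mouse heart they divide rarely and carry surface and transcription markers such as Pdgfra and Tcf21, while Pi16 and Cd248 mark fibroblasts around vessels in several mouse tissues. After pressure overload they are known to proliferate, to secrete matrix and to take on an activated state marked by periostin (Postn).

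The libraries held 16802939 to 39512101 estimated counts, of which mitochondrially encoded genes took 50.7% to 73.6%. That share was 59.8% to 64.5% in Sham-LVH and 50.7% to 58.4% in TAC-LVH, and 61.3% to 67.0% in Sham-HF and 52.7% to 57.6% in TAC-HF. With the mitochondrially encoded genes left out before scaling, the calls of all 10 members were the same in each of the 6 tests described here. Levels are given as CPM, a gene's share of each library's counts, after TMM scaling, a step that centres the bulk of genes between libraries. Cardiomyocyte genes summed to 14770 CPM or more in every library, with Myh6, the main adult mouse myosin heavy chain, called lower after TAC at both times.

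Read per kilobase of exon, the members covered a wide range of levels in Sham-LVH hearts. Gsn, which encodes the actin-severing protein gelsolin and is also transcribed in other heart cells, stood at 170 CPM per kb. Dpep1 followed at 10.4, Pcsk6 at 7.85, Cygb at 6.98, Pi16 at 4.13, Pdgfra at 3.71 and Entpd2 at 2.66 CPM per kb. Cd248 at 1.67, Scara5 at 1.64 and Tcf21 at 0.739 CPM per kb were the lowest of the 10. In TAC-LVH hearts the lower end of this order was different, with Tcf21 at 1.71 and Scara5 at 0.896 CPM per kb. Cygb, at 14.2 CPM per kb, had a mean above that of Dpep1, at 11.6, in the same hearts. The sum of the 10 members in CPM is mostly Gsn, and it ranged from 608 to 806 in Sham-LVH and from 597 to 883 in TAC-LVH hearts.

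**Figure D1:**
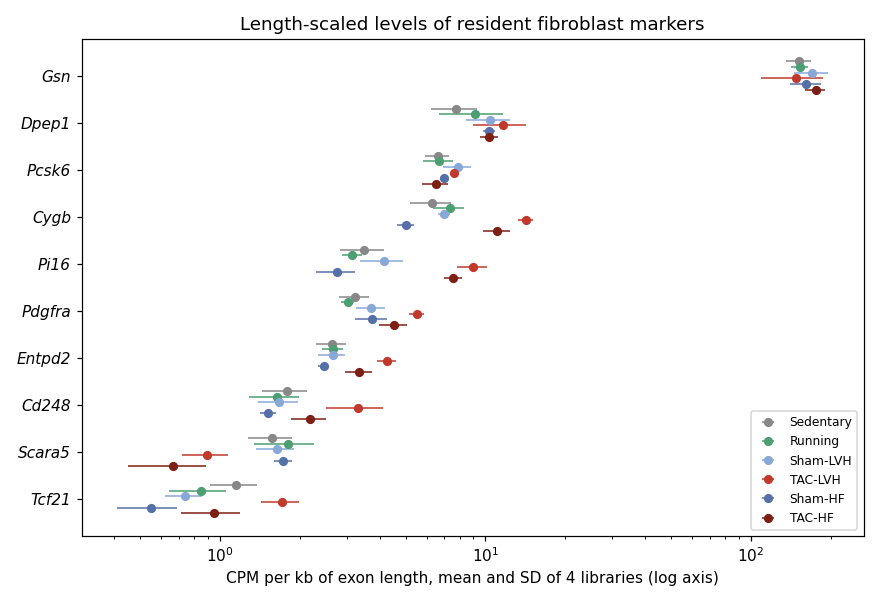
Level of each member in CPM per kb of exon length (log axis), as the mean and SD of 4 libraries in each of the 6 groups. Gsn stands far above the other 9 genes in every group, and Scara5 and Tcf21 exchange places at the bottom between sham and TAC-LVH hearts.

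The promoters of the members that rose together at 2 weeks of TAC are shown because Tcf21 is a basic helix-loop-helix factor, and such factors bind E-boxes (CANNTG). RefSeq promoter windows of GRCm38.p6, from 250 bases before to 50 after a gene's start, were found for 7 of 10 members, in 9 windows. Those of the members called higher at 2 weeks are Pi16 at chr17:29318632-29318931 on the plus strand, Pdgfra at chr5:75152001-75152300 on the plus strand, Entpd2 at chr2:25395624-25395923 on the plus strand and Tcf21 at chr10:22820094-22820393 on the minus strand. Capitals mark each E-box; the sequences run 5′ to 3′ along the gene's strand.
Pi16: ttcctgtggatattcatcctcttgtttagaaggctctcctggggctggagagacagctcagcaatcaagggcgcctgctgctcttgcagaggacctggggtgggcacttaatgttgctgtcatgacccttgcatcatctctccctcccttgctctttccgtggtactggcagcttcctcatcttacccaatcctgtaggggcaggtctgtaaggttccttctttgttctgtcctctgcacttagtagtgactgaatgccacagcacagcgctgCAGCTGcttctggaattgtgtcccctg
Pdgfra: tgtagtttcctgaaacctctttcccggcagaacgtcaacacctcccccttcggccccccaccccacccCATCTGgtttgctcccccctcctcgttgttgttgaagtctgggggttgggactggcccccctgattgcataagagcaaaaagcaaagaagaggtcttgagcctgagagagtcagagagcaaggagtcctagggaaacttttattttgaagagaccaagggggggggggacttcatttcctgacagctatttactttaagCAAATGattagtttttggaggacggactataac
Entpd2: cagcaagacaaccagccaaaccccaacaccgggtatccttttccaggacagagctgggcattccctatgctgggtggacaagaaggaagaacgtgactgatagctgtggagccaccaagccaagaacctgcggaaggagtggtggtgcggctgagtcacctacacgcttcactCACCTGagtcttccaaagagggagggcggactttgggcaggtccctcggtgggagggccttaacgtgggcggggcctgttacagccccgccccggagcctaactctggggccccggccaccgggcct
Tcf21: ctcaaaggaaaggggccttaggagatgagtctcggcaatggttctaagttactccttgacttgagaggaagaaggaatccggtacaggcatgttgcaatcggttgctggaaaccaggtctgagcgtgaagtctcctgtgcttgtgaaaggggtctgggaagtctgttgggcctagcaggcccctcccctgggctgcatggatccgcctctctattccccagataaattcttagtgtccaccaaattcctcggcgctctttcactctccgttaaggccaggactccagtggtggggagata
The Pi16 window holds 1 E-box, CAGCTG, starting 23 bases after the start. Pdgfra holds CATCTG and CAAATG, Entpd2 holds CACCTG, and the Tcf21 window holds no match to these letters. An E-box was present in 7 of the 9 member windows (77.8%) and in 72.3% of all 32851 promoter windows of the same length. The form CAGCTG, a palindrome that reads the same on both strands, was in 4 of 9 member windows (44.4%) and 16.3% of all windows. Of these 4 windows 1 was of Pi16, and the others were of members not called: 2 alternative starts of Gsn and 1 start of Dpep1. These matches are letters in a window, and no binding was measured.

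After 2 weeks of TAC, 6 of the 10 members rose, 1 fell and 3 were not called. Tcf21, Pdgfra, Pi16, Cd248, Cygb and Entpd2 rose between 1.48-fold (Pdgfra) and 2.29-fold (Tcf21), and Scara5 fell 1.85-fold. Gsn, Dpep1 and Pcsk6 had adjusted p-values of 0.441, 0.558 and 0.755 (edgeR). Of all 14224 genes tested, 33.2% were called, 17.1% higher and 16.1% lower. The groups did not overlap in any library for the 7 called members, against 16.8% of all genes higher and 15.6% lower without overlap. The median log2 fold change was 0.62 over the 10 members and -0.002 over all genes tested. In whole-heart RNA, fewer or more fibroblasts and less or more RNA per fibroblast cannot be told apart.

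After 8 weeks of TAC, 5 members rose, 1 fell and 4 were not called. Pi16, Cygb, Tcf21, Cd248 and Entpd2 rose, Scara5 fell 2.62-fold, and Pdgfra joined Gsn, Dpep1 and Pcsk6 among the genes not called. Of all 13621 genes tested, 29.6% were called, 14.9% higher and 14.7% lower. Of the 5 that rose, 4 showed no overlap between the groups (15.7% of all genes), as did Scara5 in the other direction (13.5%). The median log2 fold change of the members was 0.34 and that of all genes 0.003. The sham groups of the 2 times are separate, so that no library enters both comparisons.

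**Figure D2:**
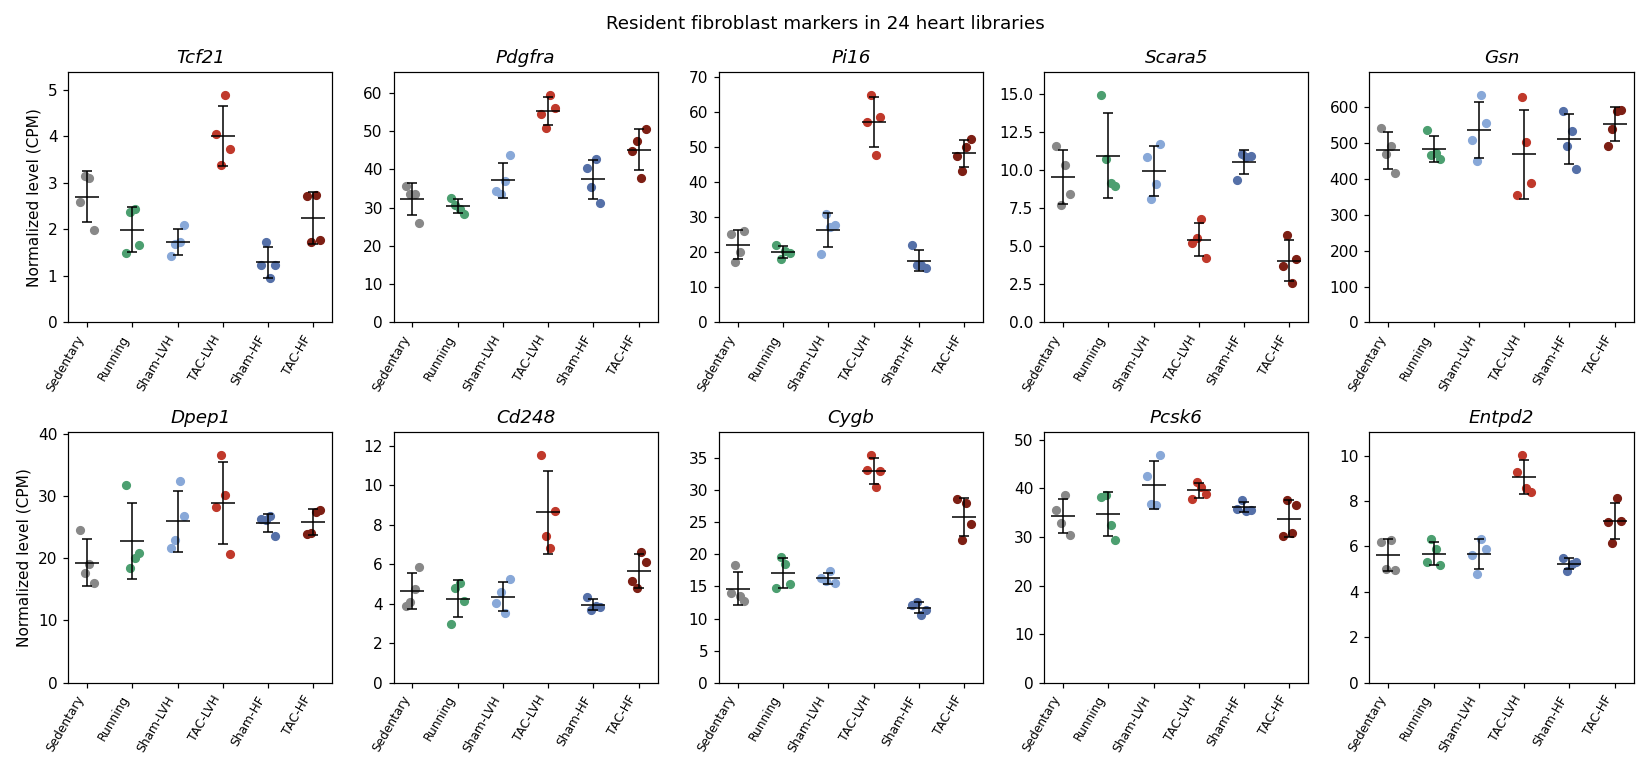
CPM of each member in every library, by group, with the group mean and SD (n = 4). Tcf21, Pdgfra, Pi16, Cd248, Cygb and Entpd2 have their highest group mean in TAC-LVH hearts, and Scara5 is lowest in the TAC-HF and TAC-LVH groups.

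Pi16 (peptidase inhibitor 16, a membrane-anchored and secreted member of the CAP family) had the largest rise of the members at 8 weeks and, after Tcf21, at 2 weeks. Its levels in Sham-LVH hearts were 19.4, 30.9, 27.2 and 27.7 CPM, and in TAC-LVH hearts 57.1, 65.0, 47.6 and 58.5 CPM. In Sham-HF hearts they were 22.0, 16.4, 16.4 and 15.6 CPM, and in TAC-HF hearts 47.4, 43.3, 49.9 and 52.2 CPM. Every TAC heart lay above every sham, sedentary and running heart, with the nearest control at 30.9 CPM. The log2 fold change was 1.118 (SE 0.136, adjusted p = 5.48e-05, edgeR) at 2 weeks and 1.43 (SE 0.108, adjusted p = 1.84e-06) at 8 weeks. Sedentary and Running hearts stood at 22.2 ± 4.18 and 20.1 ± 1.71 CPM (SD, n = 4).

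A list of 8 genes held reported PI16 targets, genes that act with them and relatives of the CAP family and its neighbours. Of the 8, 7 were called higher at 2 weeks, all but Rarres2, and 7 at 8 weeks, all but Glipr2 (0.40, adjusted p = 0.123, edgeR). Mmp2, a matrix metalloproteinase that human PI16 is reported to inhibit, rose by 2.01 on the log2 scale at 2 weeks and by 1.231 at 8 weeks. Ctsk, the collagen-degrading protease cathepsin K that activates chemerin, rose by 1.89 and 1.69. Rarres2, which encodes the chemoattractant chemerin, had a log2 fold change of 0.36 (adjusted p = 0.109) at 2 weeks and rose by 0.55 (adjusted p = 0.0132, edgeR) at 8 weeks.

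Scara5, a scavenger receptor that takes up ferritin in mice, moved the opposite way. Sham-LVH hearts held 10.9, 8.14, 9.11 and 11.7 CPM and TAC-LVH hearts 5.21, 5.56, 6.81 and 4.25 CPM. Sham-HF hearts held 9.34, 11.1, 10.9 and 10.9 CPM, against 3.73, 5.77, 2.57 and 4.20 CPM in TAC-HF hearts. All 8 TAC hearts lay below all 16 other hearts, of which the lowest was a sedentary heart at 7.73 CPM. The log2 fold change was -0.89 (SE 0.155, adjusted p = 0.000717, edgeR) at 2 weeks and -1.39 (SE 0.187, adjusted p = 0.000211) at 8 weeks.

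Because Pi16 and Scara5 moved apart, their counts were also set against each other within each library, a ratio that no scaling between libraries touches. This pair was chosen after its values were seen, and the ratio is given as a description. There were 1.94 to 3.08 Pi16 counts per Scara5 count in Sedentary, 1.48 to 2.21 in Running, 1.78 to 3.80 in Sham-LVH and 1.42 to 2.36 in Sham-HF hearts. The ratio was 7.00 to 13.8 in TAC-LVH and 7.50 to 19.4 in TAC-HF hearts. The 8 TAC hearts thus stood apart from the 16 others, and the 2 TAC groups overlapped.

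**Figure D3:**
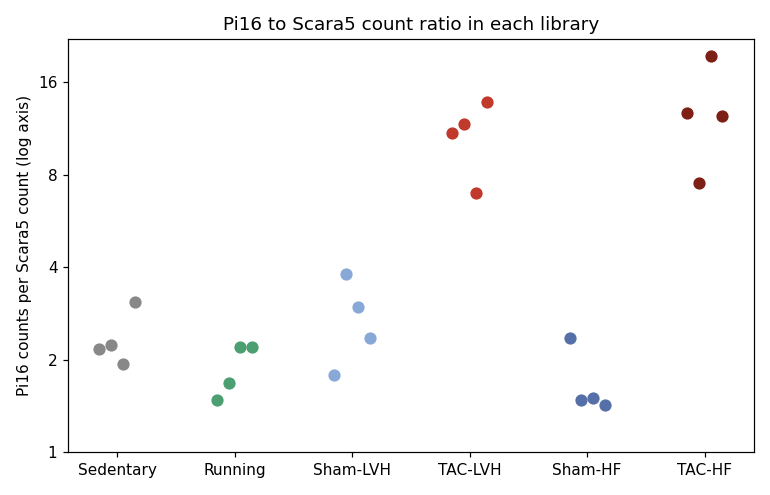
Pi16 counts per Scara5 count in each library, by group. The 16 control and running hearts lie at 3.80 or below, and the 8 TAC hearts lie at 7.00 or above.

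The other genes of ferritin and iron uptake did not share a direction. At 2 weeks 5 of 11 tested rose and 3 fell, and at 8 weeks 3 rose and 2 fell. Fth1, the ferritin heavy chain, had log2 fold changes of -0.48 (adjusted p = 0.0159) and -0.59 (adjusted p = 0.00276), whereas Ftl1, the light chain, rose by 0.58 and 0.62 (edgeR). Colec12, another scavenger receptor, rose by 0.94 at 2 weeks and 0.91 at 8 weeks. Tfrc, the transferrin receptor, had log2 fold changes of -0.14 and 0.63 with adjusted p-values of 0.765 and 0.0715 (edgeR). At 8 weeks DESeq2 called it higher (adjusted p = 0.00725), as did edgeR with library totals alone (0.95, adjusted p = 0.0111).

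Cygb, the globin cytoglobin that is expressed in fibroblast-like cells of many tissues, had the smallest standard error of the members at 2 weeks. Its levels were 16.3, 15.8, 17.4 and 15.6 CPM in Sham-LVH and 33.2, 35.5, 30.5 and 33.0 CPM in TAC-LVH hearts. Sham-HF hearts held 12.2, 12.6, 10.6 and 11.3 CPM and TAC-HF hearts 28.6, 22.2, 28.0 and 24.7 CPM. Neither TAC group overlapped any other group. The level rose 2.03-fold at 2 weeks (SE 0.0846 on the log2 scale, adjusted p = 2.95e-06, edgeR) and 2.17-fold at 8 weeks (SE 0.101, adjusted p = 5.39e-06). Sham-HF hearts lay below all Sham-LVH hearts, a difference between sham groups that was not tested. An antisense neighbour, Prcd, covers 8.62% of the annotated Cygb exon bases and stood at 0.060 to 0.515 CPM.

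Of the 5 other globins tested, myoglobin (Mb) was the 1 called at 2 weeks, with a log2 fold change of -0.47 (adjusted p = 0.0402, edgeR), and it was not called at 8 weeks (0.11, adjusted p = 0.450). At 8 weeks 2 haemoglobin genes were called higher, Hba-a1 at 0.38 and Hbb-bs at 0.30. Haemoglobin transcripts in heart RNA can come from blood left in the tissue, and their source here was not tested. They belong to gene families of near-identical copies, so that their counts are uncertain.

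Tcf21 is the basic helix-loop-helix factor that mouse epicardial cells need to form cardiac fibroblasts. It had the lowest counts of the members, 19 to 133 per library. The levels in Sham-LVH hearts were 1.43, 1.68, 1.73 and 2.10 CPM, and in TAC-LVH hearts 4.04, 3.38, 4.89 and 3.73 CPM, with no overlap. In Sham-HF hearts they were 1.243, 1.735, 0.952 and 1.228 CPM, and in TAC-HF hearts 2.71, 1.73, 2.73 and 1.77 CPM. Here the lowest TAC heart fell just within the sham range, and the TAC-HF hearts lay in 2 pairs.

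The log2 fold change of Tcf21 was 1.197 (SE 0.167, adjusted p = 0.000137, edgeR) at 2 weeks and 0.75 (SE 0.236, adjusted p = 0.0279) at 8 weeks. The call at 8 weeks was lost in 5 of 8 fits that left out 1 library: Sham-HF replicate 1 (adjusted p = 0.0570), 3 (0.0921) or 4 (0.0670), or TAC-HF replicate 1 (0.0802) or 3 (0.0829). Sedentary hearts, at 2.70 ± 0.545 CPM, were above the TAC-HF hearts, at 2.24 ± 0.561 CPM, with overlap, so that the level at 8 weeks was high against its own sham group and not against all control groups.

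E-proteins, with which basic helix-loop-helix factors of this class pair, rose at 2 weeks: Tcf4 by 0.51 (adjusted p = 0.00104), Tcf3 by 0.37 (adjusted p = 0.0404) and Tcf12 by 0.27 (adjusted p = 0.0238, edgeR). DESeq2 did not call Tcf3 (adjusted p = 0.0503). At 8 weeks none of the 3 was called, with log2 fold changes of 0.08, -0.05 and 0.08. Id2 and Id3, inhibitors that bind E-proteins and keep them from DNA, rose at both times, Id3 by 0.72 and 0.75 and Id2 by 0.73 and 0.60. Of 14 genes tested among E-proteins and other fibroblast transcription factors, 8 rose and 1 fell at 2 weeks and 3 rose and 2 fell at 8 weeks. Twist1, another factor of the class, had the largest log2 fold change of the list at 2 weeks, 1.31. At 8 weeks the largest of the list was 0.75. Gata6 fell at both times, with log2 fold changes of -0.31 and -0.39. Epicardial and mesothelial markers, also a source of Tcf21, rose in 3 of 4 genes tested at 2 weeks and in 2 of 4 at 8 weeks. The 11 markers in the table summed to 4.65 to 7.44 CPM in Sham-LVH and 11.1 to 19.0 CPM in TAC-LVH hearts, and to 3.92 to 9.25 CPM in Sham-HF and 7.80 to 12.8 CPM in TAC-HF hearts. Tbx18 and Aldh1a2 made up most of that sum in TAC-LVH hearts, with means of 4.28 and 6.24 CPM, whereas the mesothelial markers Upk3b and Msln stood at means of 0.294 and 0.303 CPM. Their part in the Tcf21 result was not tested.

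Pdgfra, the receptor tyrosine kinase for platelet-derived growth factors (PDGF) that marks fibroblasts in most tissues, stood at 34.3, 33.6, 36.9 and 43.8 CPM in Sham-LVH hearts. TAC-LVH hearts held 54.5, 50.9, 59.5 and 56.0 CPM. The groups were apart, with a log2 fold change of 0.57 (SE 0.0993, adjusted p = 0.000691, edgeR). Sham-HF hearts held 40.4, 35.5, 42.7 and 31.2 CPM and TAC-HF hearts 44.9, 47.3, 37.8 and 50.7 CPM. These groups overlapped through TAC-HF replicate 3, and the log2 fold change of 0.25 (SE 0.107, adjusted p = 0.0949) was not called. Without that library the adjusted p was 0.0273 (edgeR), and no other fit with 1 library left out called Pdgfra at 8 weeks. Its log2 fold change ran from 0.17 to 0.58 over 15 alternative settings.

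Of the 4 PDGF ligands, Pdgfb, an endothelial product, rose by 0.48 (adjusted p = 0.00377, edgeR) at 2 weeks and had a log2 fold change of 0.05 at 8 weeks. Pdgfa, Pdgfc and Pdgfd were not called at either time. Their log2 fold changes were -0.21, 0.63 and -0.01 at 2 weeks and 0.09, 0.10 and 0.15 at 8 weeks. Pdgfrb, the receptor of pericytes and fibroblasts, rose by 0.58 (adjusted p = 0.000524) and 0.25 (adjusted p = 0.0307), and Pdgfrl, a receptor-like gene, rose by 1.91 and 1.42.

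Cd248 encodes endosialin, a transmembrane lectin of fibroblasts and pericytes. Its levels were 4.02, 4.60, 3.54 and 5.27 CPM in Sham-LVH and 11.6, 7.44, 6.81 and 8.72 CPM in TAC-LVH hearts. In Sham-HF hearts they were 4.33, 3.69, 3.91 and 3.86 CPM and in TAC-HF hearts 5.13, 4.81, 6.63 and 6.12 CPM. Neither pair of groups overlapped, although the TAC-HF hearts ran into the Sedentary range of 3.87 to 5.88 CPM. The log2 fold change was 0.98 (SE 0.167, adjusted p = 0.000606, edgeR) at 2 weeks and 0.50 (SE 0.133, adjusted p = 0.0118) at 8 weeks.

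Among the reported ligands of Cd248 and related lectins, 4 of 6 rose at 2 weeks and 3 of 6 at 8 weeks. Fn1, the matrix protein fibronectin, rose by 2.95 and 1.49 on the log2 scale, and Lgals3bp, a secreted glycoprotein, by 0.84 and 0.76. Since pericytes also carry Cd248, their markers are given beside it: of 14 smooth muscle and pericyte genes, 7 rose and 1 fell at 2 weeks, and 3 rose and 1 fell at 8 weeks. They summed to 784 to 875 CPM in Sham-LVH and 825 to 893 CPM in TAC-LVH hearts, and to 766 to 794 CPM in Sham-HF and 683 to 766 CPM in TAC-HF hearts. The gene that fell was Abcc9, a potassium channel subunit that cardiomyocytes also express, with means of 276.5 CPM in Sham-LVH and 150.0 CPM in TAC-LVH hearts and log2 fold changes of -0.89 and -0.58. Without Abcc9, a choice made after its values were seen, the other 13 genes summed to 514 to 599 CPM in Sham-LVH and 681 to 742 CPM in TAC-LVH hearts, with no overlap, and to 510 to 560 CPM in Sham-HF and 521 to 593 CPM in TAC-HF hearts, with overlap. The part of pericytes in the Cd248 result was not tested.

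Entpd2 encodes a surface enzyme that hydrolyses extracellular ATP to ADP. The levels in Sham-LVH hearts were 5.63, 4.77, 6.35 and 5.87 CPM, and in TAC-LVH hearts 9.28, 10.0, 8.57 and 8.38 CPM. Sham-HF hearts held 5.48, 4.90, 5.21 and 5.32 CPM and TAC-HF hearts 7.07, 6.15, 8.12 and 7.13 CPM. Both TAC groups lay above their shams in every library, with log2 fold changes of 0.67 (SE 0.116, adjusted p = 0.000661, edgeR) and 0.42 (SE 0.116, adjusted p = 0.0138). The lowest TAC-HF heart, at 6.15 CPM, lay below the highest Sedentary (6.26 CPM), Running (6.31 CPM) and Sham-LVH (6.35 CPM) hearts. The Entpd2 value is uncertain, since 612 of its exon bases (28.8%) are also exon of Npdc1 on the same strand. Npdc1, too, was called higher, by 0.71 (adjusted p = 0.00126) and 0.42 (adjusted p = 0.0408), and how the counts were divided between both genes was not tested.

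In the other genes of extracellular nucleotide handling, 5 of 17 tested rose and 5 fell at 2 weeks, and 4 of 16 rose and 4 fell at 8 weeks. Entpd1, a related ATP- and ADP-hydrolysing enzyme of vessels and immune cells, rose by 0.60 and 0.78, and Enpp1, which makes pyrophosphate from ATP, by 2.34 and 1.63. P2ry1, a receptor for ADP, fell by 1.04 and 0.79 on the log2 scale. Nt5e, the enzyme that turns AMP into adenosine, was not called, with log2 fold changes of -0.04 and 0.04. Schwann cells and other glia also carry Entpd2, and of their markers 0 rose and 3 of 8 fell at 2 weeks, and 0 rose and 3 of 6 fell at 8 weeks. Scaled to library totals alone, 2 rose and 1 fell at 2 weeks, and 3 fell at 8 weeks. The 11 glial markers summed to 18.9 to 23.6 CPM in Sham-LVH and 14.5 to 17.2 CPM in TAC-LVH hearts, and to 21.3 to 23.6 CPM in Sham-HF and 14.0 to 17.7 CPM in TAC-HF hearts.

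Gsn, Dpep1 and Pcsk6 were called in neither TAC comparison. Gsn had 449 to 635 CPM in Sham-LVH and 356 to 628 CPM in TAC-LVH hearts, with a log2 fold change of -0.20 (95% interval -0.59 to 0.20). At 8 weeks the interval was -0.12 to 0.31. The TAC-LVH hearts spread widely in Gsn, with a coefficient of variation of 26.3% against 14.6% in their shams. Of 7 other genes tested from the gelsolin family or with actin-severing products, 3 rose and 1 fell at 2 weeks, and 4 rose at 8 weeks. Among them Capg, a gelsolin relative of macrophages, rose by 1.187 and 1.52 and Cfl1, cofilin, by 0.62 and 0.44.

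Dpep1, a membrane dipeptidase that also cleaves leukotriene D4, had 21.7, 22.8, 32.4 and 26.7 CPM in Sham-LVH and 28.2, 36.6, 30.1 and 20.6 CPM in TAC-LVH hearts. The highest and the lowest of these 8 values were both TAC hearts. At 8 weeks the groups lay together, 23.6 to 26.8 CPM in Sham-HF and 23.9 to 27.7 CPM in TAC-HF hearts, and the log2 fold change was -0.02 (95% interval -0.20 to 0.16). In the leukotriene genes beside it, Alox5, the enzyme that begins leukotriene synthesis, fell by 0.97 and 0.49 and Cysltr1, a leukotriene receptor, rose by 1.26 and 1.143 on the log2 scale. These were the 2 of 6 genes called at 2 weeks, and at 8 weeks Ggt5 was called lower as well (-0.48).

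Pcsk6, a proprotein convertase that activates corin in the heart, had 36.6 to 46.9 CPM in Sham-LVH and 37.9 to 41.3 CPM in TAC-LVH hearts. It had 35.4 to 37.6 CPM in Sham-HF and 30.1 to 37.5 CPM in TAC-HF hearts. The log2 fold changes were -0.05 (95% interval -0.25 to 0.16) and -0.12 (-0.31 to 0.07). Its partner Corin, the cardiomyocyte protease that processes pro-atrial natriuretic peptide, fell by 0.92 (adjusted p = 3.02e-05) and 0.73 (adjusted p = 3.34e-05, edgeR) on the log2 scale. Nppa, which encodes that propeptide, rose by 4.29 and 4.05. Among the other convertases Furin fell by 0.40 and 0.52, and Pcsk5 rose by 1.04 and 0.84.

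**Figure D4:**
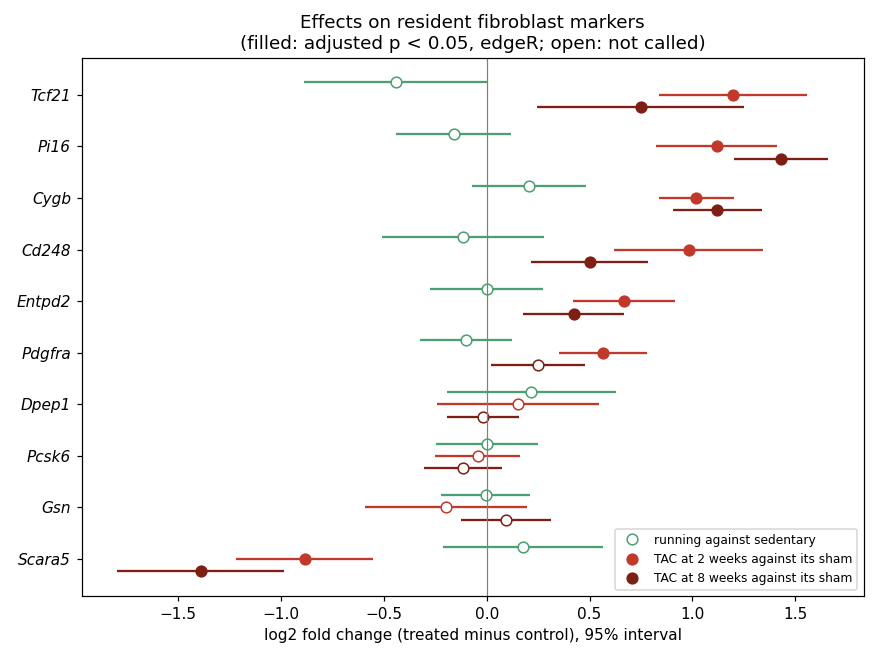
Log2 fold change of each member with its 95% interval for running, TAC at 2 weeks and TAC at 8 weeks, each against its own control group; filled points are called at an adjusted p under 0.05 (edgeR). Running intervals lie around 0. TAC intervals of Tcf21, Pdgfra, Pi16, Cygb, Cd248 and Entpd2 lie to the right of it and those of Scara5 to the left. The intervals are not adjusted for the number of genes, and Pdgfra (0.02 to 0.48 at 8 weeks) was not called there.

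Scaling is a limit on the 3 uncalled members. With library totals alone, without TMM, the median of all genes moved to 0.41 at 2 weeks and 0.34 at 8 weeks, and Dpep1 was called higher at both times while Pcsk6 was called higher at 2 weeks and Gsn and Pdgfra at 8 weeks. The 6 members that rose at 2 weeks and the fall of Scara5 at both times were called under that scaling too. Fth1, Furin and Gata6 at both times, Mb at 2 weeks and Alox5 and Ggt5 at 8 weeks were not. Among the other genes described as not called, Rarres2, Pdgfc, Pdgfd and Acta2 at 2 weeks were then called higher. So were Pdgfa, Pdgfb, Pdgfd, Tcf4, Tcf12, Glipr2, Tfrc and Mb at 8 weeks.

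Whether the TAC effect differed between 2 and 8 weeks was tested as the difference of both effects over 16 libraries. None of the 10 members was called by edgeR or by DESeq2, against 1.36% of 14463 genes by edgeR (0.933% higher and 0.422% lower), and 1 member had an unadjusted p under 0.05. That was Cd248, with a difference of -0.47 on the log2 scale (95% interval -0.94 to -0.01, adjusted p = 0.254). The difference was -0.31 (-0.62 to 0.00) for Pdgfra, -0.44 (-1.06 to 0.17) for Tcf21 and -0.24 (-0.57 to 0.09) for Entpd2. It was 0.32 (-0.07 to 0.70) for Pi16, -0.50 (-1.05 to 0.05) for Scara5 and 0.11 (-0.16 to 0.38) for Cygb. The TAC-LVH hearts had the highest group mean of Tcf21, Pdgfra, Pi16, Dpep1, Cd248, Cygb and Entpd2. Between them and the next group in that order there was no overlap for Tcf21, Pdgfra, Cd248, Cygb and Entpd2. There was overlap for Pi16 and Dpep1. That next group was Sedentary for Tcf21, Sham-LVH for Dpep1 and TAC-HF for the others. The share of all genes without such overlap was not counted, so that these values are a description only.

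Running, the model of exercise growth, was set against the sedentary group. None of the 10 members was called, and 0% of 13824 genes were called by edgeR, although 665 genes (4.81%) had an unadjusted p under 0.05 and DESeq2 called 9 genes, with no member among them. The largest member difference was in Tcf21, with 2.58, 3.14, 3.10 and 1.98 CPM in Sedentary and 1.499, 2.37, 2.44 and 1.67 CPM in Running hearts. Sedentary and Running hearts overlapped in all 10 members, against 1.72% of all genes that were higher and 1.31% that were lower without overlap. For Tcf21 the log2 fold change was -0.44 (95% interval -0.89 to 0.01, adjusted p = 1.00, edgeR). No member had an unadjusted p under 0.05. The 95% intervals of the other 9 members lay between -0.51 (Cd248) and 0.63 (Dpep1), so that a 2-fold change after running lay outside the interval of each of the 10 genes.

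The difference between a TAC effect and the running effect was tested for each member. At 2 weeks the TAC effect was higher in 6 members and lower in 1, against 9.50% and 9.56% of 14729 genes and 19.1% in either direction. These were Tcf21 (difference 1.63), Pi16 (1.28), Cd248 (1.09), Cygb (0.81), Entpd2 (0.67), Pdgfra (0.66) and Scara5 (-1.06). At 8 weeks 3 were higher and 1 lower, against 5.74% and 5.35% of 14252 genes and 11.1% in either direction: Pi16 (1.598), Tcf21 (1.197), Cygb (0.92) and Scara5 (-1.56). Cd248 (0.62, adjusted p = 0.0881), Entpd2 (0.43, adjusted p = 0.102) and Pdgfra (0.36, adjusted p = 0.145, edgeR) were not called, but were under library totals alone, while the Scara5 difference at 2 weeks was then not called (-0.60, adjusted p = 0.0640). Both sets of differences use the same Running and Sedentary libraries.

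A list of 25 other genes of quiescent or widely shared fibroblasts was set beside the members. At 2 weeks 16 of 25 rose and 5 fell, with a median log2 fold change of 0.46, and at 8 weeks 11 rose and 3 fell, with a median of 0.27. Mfap5, a microfibril protein, rose by 2.73 and 2.32 on the log2 scale, Lum, the collagen-binding proteoglycan lumican, 2.98-fold and 2.27-fold, and Cd34, a surface sialomucin, by 0.90 and 0.86 on the log2 scale. The 5 that fell at 2 weeks were Penk (-1.41), which encodes proenkephalin, Clec3b (-0.86), Efemp1 (-0.84), Hsd11b1 (-0.77) and Cxcl14 (-0.44), and they were named after their values were seen. Those that fell at 8 weeks were Penk (-1.61), Efemp1 (-1.32), a fibulin of the matrix, and Clec3b (-0.97). Scaled to library totals alone, 1 of the 5 at 2 weeks and 2 of the 3 at 8 weeks were still called lower, a check added after seeing the data.

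Genes of activated fibroblasts had larger median changes than the members. At 2 weeks 21 of 22 tested rose, with a median of 2.98, and at 8 weeks 20 of 21, with a median of 1.84. Postn, the matricellular protein periostin, rose by 4.03 and 3.61 on the log2 scale. The exception was Acta2, smooth muscle actin, with log2 fold changes of 0.16 and -0.01, which smooth muscle cells of vessels also express in quantity. Fap, called higher at 8 weeks (0.50), was not called there with DESeq2 (adjusted p = 0.0806) or with edgeR and RLE factors (adjusted p = 0.0502). The 22 genes of the list summed to 342 to 502 CPM in Sham-LVH and 2196 to 4296 CPM in TAC-LVH hearts.

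Markers of other cells moved in the same comparisons. Of 11 macrophage and monocyte genes, 11 rose at 2 weeks and 10 at 8 weeks, and their sum went from 149 to 237 CPM in Sham-LVH to 313 to 404 CPM in TAC-LVH hearts, and from 108 to 164 CPM in Sham-HF to 188 to 292 CPM in TAC-HF hearts. Of 12 endothelial genes, 6 rose at 2 weeks. The log2 fold changes of the list ran from -0.17 to 0.74 with a median of 0.31, and Cldn5, a tight-junction protein, rose by 0.74. Tek was not called when RLE factors, another scaling, were used (adjusted p = 0.0541, edgeR), whereas library totals alone called more of the list higher at 2 weeks. At 8 weeks 0 of 12 were called by edgeR or DESeq2, with 1 at an unadjusted p under 0.05, and 9 rose when scaled to library totals alone. They summed to 558 to 688 CPM in Sham-LVH and 706 to 720 CPM in TAC-LVH hearts. Of 10 cardiomyocyte genes, 9 fell at 2 weeks and 5 at 8 weeks, with sums of 26340 to 30540 and 14770 to 17950 CPM at 2 weeks and of 27700 to 31100 and 20620 to 21610 CPM at 8 weeks in sham and TAC hearts. Scaled to library totals alone, 5 cardiomyocyte genes fell at 2 weeks, and 2 fell and 3 rose at 8 weeks. Of 7 adipocyte genes 2 could be tested. Plin4, a lipid droplet gene that muscle also expresses, fell at both times, and Cfd had log2 fold changes of -0.66 and 0.26, not called. Plin4 made up 95.6% or more of the summed list in every library, and the other 6 genes summed to 1.43 to 2.81 CPM in Sham-LVH and 0.373 to 2.20 CPM in TAC-LVH hearts, with overlap. Valve and tendon-like fibroblast genes rose in 4 of 7 at 2 weeks and in 4 of 8, with 1 lower, at 8 weeks. The part of each of these cell types in the member results was not tested. After running, 0 genes of these lists were called by edgeR or DESeq2, and 0 to 3 per list had an unadjusted p under 0.05.

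**Figure D5:**
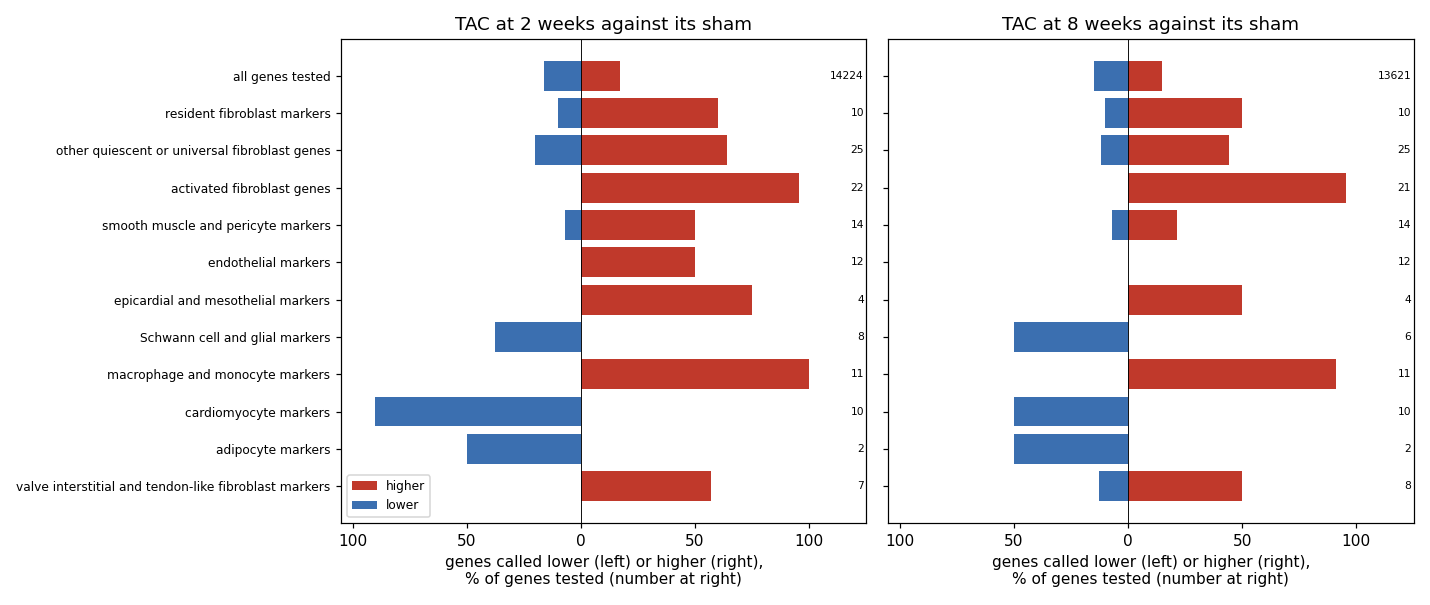
Share of tested genes called higher (right) or lower (left) for each cell type list after TAC at 2 and 8 weeks, with the number tested at the right edge. Activated fibroblast and macrophage lists are almost wholly higher. Of 10 cardiomyocyte genes, 9 are lower at 2 weeks and 5 at 8 weeks. The resident markers hold both directions, as do the other quiescent fibroblast genes and the smooth muscle and pericyte markers.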

How the data were processed

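RNA of 24 mouse heart samples was measured, 4 libraries in each of 6 groups. Trizol extraction, RiboZero depletion and an NEB library kit were used, per the labels' protocols. The authors deposited expected counts per gene, written as whole numbers and not scaled. Per the submitters' processing notes, FastQC, Salmon and the build mm9 were used; their versions, the annotation and the strand setting were not stated in the labels, so that overlapping and antisense genes are uncertain. Depth was 16802939 to 39512101 counts per library. The 1 row that names no gene held 0 counts and was left out.

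The fits used R 4.3.3 and edgeR 4.0.16 (low-count filter filterByExpr, TMM, robust quasi-likelihood F test, two-sided, Benjamini-Hochberg over all genes tested) and called at an adjusted p under 0.05. Each comparison used its own 8 libraries, and differences of effects used 16. The fits were tested on simulated data. CPM was scaled by TMM over all 24 libraries, and profiles were compared as log2(CPM + 0.5). Exon lengths came from GENCODE annotation of GRCm38, matched by identifier, and promoters from RefSeq GRCm38.p6, matched by symbol; the deposited table holds no coordinates.

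The 10 members and 20 other lists were chosen with earlier results of these data known. The text names all members and, for each member, the 3 genes with the closest profile. In each other list the rule was up to 3 genes with the smallest p at 2 weeks and 2 at 8 weeks of TAC. A fixed set of partner genes was added. Not every gene that met this rule is named, for example Pecam1 and Kdr of the endothelial list are left out. Genes outside this rule, named after their values were seen, are Ggt5, Acta2, Fap, Cldn5, Tek, Twist1, Pcsk5, Glipr2, Upk3b and Msln. So are the exon neighbours Npdc1 and Prcd, and the fibroblast genes that fell. Alternatives were DESeq2 1.42.0, RLE factors, library totals alone, no low-count filter, mitochondrially encoded genes left out, a replicate block, all libraries in 1 fit and each library left out. Muc16 was not used here.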

Additional observations from a re-analysis of the deposited data

Results flagged for a closer look

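In 3 of 60 sets of 4 libraries, 1 per member and group, a library lay far from the other 3 relative to the range of its group, a distance that chance gives in about 1 of 20 such sets. All 3 were in the Sham-HF group. Pi16 was 22.0 CPM in Sham-HF replicate 1, against 15.6 to 16.4 CPM in the others. Scara5 was 9.34 CPM in the same heart, against 10.9 to 11.1 CPM in the others, so that the sham heart highest in Pi16 was the lowest in Scara5. Pcsk6 was 37.6 CPM in Sham-HF replicate 2, against 35.4 to 35.7 CPM in the others. Without Sham-HF replicate 1 or 2 the calls of these 3 genes at 8 weeks of TAC were the same.

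Several members responded differently to TAC and to running, by the edgeR test of the difference between both effects. At 2 weeks the TAC effect was above the running effect by 1.63 for Tcf21, 1.28 for Pi16, 1.09 for Cd248, 0.81 for Cygb, 0.67 for Entpd2 and 0.66 for Pdgfra, in log2 units, and the difference was -1.06 for Scara5. At 8 weeks it was 1.598 for Pi16, 1.197 for Tcf21, 0.92 for Cygb and -1.56 for Scara5. The Tcf21 difference at 8 weeks was not called without TAC-HF replicate 1 (adjusted p = 0.0505) or 3 (adjusted p = 0.0519).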

How the results depend on the processing

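DESeq2, RLE factors, leaving out mitochondrially encoded genes and 1 fit of all libraries kept every member call. Scaling to library totals alone shifted the median of all genes to 0.41 (2 weeks) and 0.34 (8 weeks), and of the called genes 91.9% and 91.4% were higher, against 51.5% and 50.4%. It reversed Pcsk6 at 2 weeks (0.37, adjusted p = 0.0181, edgeR) and Dpep1 at 8 weeks (0.31, adjusted p = 0.0232). Genes called were then 6995 higher and 614 lower at 2 weeks, 6075 and 568 at 8 weeks (members higher 8), 14 and 16 for the 8-week minus the 2-week effect, 4506 and 214 for the 2-week TAC minus the running effect (members lower 0; Scara5 -0.60, adjusted p = 0.0640), and 3028 and 170 for the 8-week TAC minus the running effect (members higher 6). DESeq2 called 4 and 5 genes for running and 430 and 196 for the 8-week minus the 2-week effect. With no low-count filter, 1 gene was called higher and 1 lower after running, and Pdgfra was called at 8 weeks (0.27, adjusted p = 0.0410).

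With 1 library left out, genes called ranged over 0 to 1 higher and 0 to 2 lower for running, 16 to 437 and 6 to 217 for the 8-week minus the 2-week effect, and 575 to 866 and 499 to 924 for the 8-week TAC minus the running effect, with 2 to 3 members higher there. Members called higher were 6 in each such fit at 2 weeks and 4 to 5 at 8 weeks, with 1 lower at both times. Low counts limit Tcf21 most, which had 19 to 133 counts per library.

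The labels do not say whether samples with the same replicate number are paired, and the main fits did not pair them. Same-numbered libraries had correlations of deviations of 0.523, 0.383, 0.195 and 0.064 for running, 0.242, -0.022, 0.320 and 0.127 for TAC at 2 weeks and -0.330, 0.129, 0.129 and -0.224 at 8 weeks, and not every library was closest to its own number. With the replicate number as a block, genes called were 25 higher and 22 lower for running and 329 and 132 for the 8-week minus the 2-week effect. No member call changed. In the fits of 16 libraries the block joined same-numbered libraries of all groups in the fit, although no label ties these groups to each other.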

Other observations

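The genes whose profile over the 24 libraries was closest to each member were sought among 10438 genes with a mean of at least 2 CPM, by the root-mean-square difference of log2 CPM after each gene was centred on its mean. The libraries share the TAC and sham groups, so that any gene with a like TAC response can be close, and the values are a description. Closest to Pi16, which had an SD of 0.66 log2 units over the libraries, were Pdpn (0.193), which encodes the surface mucin podoplanin, Capg (0.194) and Fbln2 (0.224), a fibulin of the matrix. Pdpn stood at 1.64 CPM in Sham-LVH and 4.07 CPM in TAC-LVH hearts. Closest to Cygb were P3h3 (0.186), a collagen prolyl hydroxylase, Mxra8 (0.187) and Cd34 (0.187).

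Scara5 (SD 0.57) had Mpped2 (0.221), A330023F24Rik (0.254) and Syt7 (0.258) nearest to it. Tcf21 (SD 0.47) was nearest to Myo1f (0.231), an unconventional myosin of immune cells, Aff3 (0.256) and Hist1h1d (0.257). Cd248 was nearest to Clu (0.198), the secreted chaperone clusterin, Itpripl2 (0.209) and Tgfbr2 (0.209), a receptor for TGF-beta. Pdgfra was nearest to Stt3a (0.135), Cmpk1 (0.136) and Itgav (0.141), the integrin alpha V subunit. Entpd2 was nearest to H3f3b (0.133), 1600012H06Rik (0.133) and Itpripl2 (0.138). Entpd2, Gsn, Dpep1 and Pcsk6 varied less over the libraries, with SDs of 0.28, 0.21, 0.29 and 0.16, so that likeness to them carries less. Gsn was nearest to Drg2 (0.161), Gadd45gip1 (0.165) and Mettl22 (0.165). Dpep1 was nearest to Rn7sk (0.185), Arl4a (0.185) and Serinc3 (0.186), and Pcsk6 to Ids (0.111), Zfp148 (0.111) and Zc3h12c (0.126).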
